A study of Mus musculus with 2 samples.

Results

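Cells carrying smooth muscle or pericyte transcripts were described in single-cell RNA sequencing of bleomycin-injured mouse lung. A barcode was taken as a member if it had at least 500 genes, at most 15% mitochondrial UMIs (unique molecular identifiers, which count captured RNA molecules), at most 1 UMI of the epithelial gene Epcam, and at least 10 UMIs per 10000 for the sum of 6 genes. These genes were Myh11 (chr16:14194535-14291372 on GRCm38, minus strand), Des (chr1:75360329-75368579, plus), Cnn1 (chr9:22099216-22109630, plus) and Actg2 (chr6:83512905-83536265, minus) for smooth muscle, and Higd1b (chr11:102835849-102838040, plus) and Cox4i2 (chr2:152754173-152765037, plus) for pericytes. Of the 13841 barcodes in both libraries that met the gene and mitochondrial limits, 216 were members. The vehicle library held 119 of 7396 and the navitoclax library 97 of 6445. Members whose 4 smooth muscle genes had the larger sum formed the smooth muscle class, with 114 vehicle and 92 navitoclax cells. Members whose 2 pericyte genes had the larger sum formed the pericyte class, with 4 cells in each library. In 1 member of each library the sums were equal, and it entered neither class. No barcode sequence was shared between the libraries among the members, while 20 were shared among all 8784 vehicle and 8064 navitoclax barcodes.

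Both groups were C57Bl6 mice given bleomycin, a drug that injures the lung and causes fibrosis, on day 1. One group then received vehicle and the other navitoclax (ABT-263), an inhibitor of anti-apoptotic BCL-2 family proteins, the latter from day 15 to day 20. Lungs were harvested 21 days after injury, and digested cells were flow sorted as total epithelial and stromal cells. Each group had 1 library, so differences between libraries have no replicate check and no test was possible. The number of mice pooled into each library is not stated. All intervals are 95% intervals of counting error only, and cells were not treated as replicates.

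Smooth muscle cells of the lung encircle the airways and the larger vessels and contract through smooth muscle actin and myosin. Pericytes lie on the capillary wall inside the basement membrane, depend on platelet-derived growth factor signals from the endothelium through the receptor Pdgfrb, and regulate vessel stability and tone. Together they are called mural cells when they sit on vessels. Relaxation of both is driven by nitric oxide through soluble guanylate cyclase and cyclic GMP, and the Notch3 receptor helps to maintain the vascular types.

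The genes of the rule carried the class names unequally. Desmin (Des), the intermediate filament of muscle, had a UMI in 201 of 206 cells of the smooth muscle class (97.6%). Smooth muscle myosin heavy chain (Myh11) had one in 150 (72.8%), enteric smooth muscle actin (Actg2) in 129 (62.6%) and the actin-binding protein calponin (Cnn1) in 93 (45.1%). All 4 genes were present in 79 cells (38.3%), and Des was the sole one present in 46 cells (22.3%), 23 in each library. Leaving Des out of the sum, 110 of the 206 cells (53.4%) still reached the limit. In epithelial barcodes, which should lack it, Des had a UMI in 1.90% of vehicle and 2.86% of navitoclax cells, at median depths of 18210.5 and 19855.5 UMIs. The cells of the smooth muscle class had median depths of 5337.5 (vehicle) and 6316.5 UMIs (navitoclax). These levels are what the rule selected on and are given as a description.

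The sum of the 4 genes ranged from 8.89 to 109 per 10000 UMIs in the vehicle and from 6.76 to 121 in the navitoclax cells of the smooth muscle class, with medians of 18.4 and 22. The limit did not fall in a gap. Just inside it, at 10 to 11 per 10000, lay 12 vehicle and 9 navitoclax members, and just outside, at 9 to 10, lay 9 and 21 barcodes. Members just inside had 181 (vehicle) and 177 (navitoclax) CPM (counts per 1000000 UMIs) of Myh11, and barcodes just outside had 255 and 118. Smooth muscle actin (Acta2), which the rule did not use, stood at 1212 and 608 CPM just inside and 1391 and 655 just outside. Hhip, an inhibitor of hedgehog signalling that marks peribronchial fibroblasts, stood at 1699 and 2330 CPM just inside and 1067 and 1469 just outside.

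The smooth muscle class took a like share of the low-Epcam barcodes in both libraries. It made up 2.53% (2.09 to 3.03) of 4504 vehicle barcodes and 2.52% (2.04 to 3.08) of 3651 navitoclax barcodes, a difference of -0.0112 percentage points (-0.692 to 0.689). The pericyte class made up 0.0888% (0.0242 to 0.227) and 0.110% (0.0299 to 0.28). With 4 cells in each library, a moderate difference in pericyte share was not detectable.

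Clustering of the 216 members on their own variable genes gave 5 subclusters, which are called by number and leading genes because the same cells chose those genes. Subcluster 1, with 60 vehicle and 38 navitoclax cells, was led by Hhip, Aspn, Lum and Scx, genes of peribronchial fibroblasts, fibrillar matrix and tendon. Subcluster 2, with 30 and 23 cells, was led by Higd1b, Ndufa4l2, Notch3 and Ebf1, and it contained all 8 cells of the pericyte class. Subcluster 3, with 12 and 12 cells, was led by Fabp4, Tcap and Cpe once the heart muscle genes Myl7 and Myl4, which came mostly from 1 cell, were set aside. Subcluster 4, with 8 and 13 cells, was led by the fibroblast genes Inmt, C3 and Fn1. Subcluster 5, with 9 and 11 cells, was led by Mettl7a1, Aldh1a1, Gpm6b and Mfap4. The sizes depend on the clustering: at a resolution of 0.3, subclusters 2 and 3 merged and so did 4 and 5, and at 1 subcluster 1 split into 60 and 38 cells, while 10 of the 53 cells of subcluster 2 joined subcluster 3 and 1 joined subcluster 4.

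Acta2, the main contractile actin, graded across the subclusters. In subcluster 3 it reached 21551 (vehicle) and 23359.8 CPM (navitoclax). It stood at 7919 and 9462 CPM in subcluster 2 and at 3054 and 4219 CPM in subcluster 1. The order from subcluster 3 to 2 to 1 was the same in both libraries. Barcodes rich in fibroblast genes, taken from the other low-Epcam barcodes, had 55.2 and 109 CPM. Subcluster 4 had 1928 and 7272 CPM of Acta2, but 108 of its 110 vehicle UMIs came from 1 cell, and only 4 of its 13 navitoclax cells had 10 or more. In subcluster 5 there was no Acta2 UMI in 9 vehicle cells and 1 UMI in 11 navitoclax cells. The range inside a subcluster was also wide: in subcluster 3 the cells ran from 0 to 308 per 10000 UMIs in the vehicle and from 72.7 to 415 among navitoclax cells. The vehicle cell at 0 had 1565 UMIs and was the cell that held all 60 UMIs of the heart muscle gene Myl7. The next lowest vehicle cell was at 30.2.

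Myh11 followed a similar order. It stood at 2353 (vehicle) and 2446 CPM (navitoclax) in subcluster 3, 1873 and 1721 in subcluster 2, 447 and 530 in subcluster 1, and 123 and 570 in subcluster 4. In subcluster 4 it came from few cells, with all 7 vehicle UMIs in 1 cell and 66 of the 68 navitoclax UMIs in 3. No Myh11 UMI was present in subcluster 5. Des, which the rule used and which sets entry for these cells, varied far less, from 801 CPM in vehicle cells of subcluster 1 to 1682 in navitoclax cells of subcluster 5, against 69.4 and 87.0 in fibroblast-gene-rich barcodes. Des was the sole smooth muscle gene of the rule in 10 of 97 cells of the smooth muscle class in subcluster 1, 0 of 45 in subcluster 2, 1 of 24 in subcluster 3, 15 of 20 in subcluster 4 and 20 of 20 in subcluster 5. The class name therefore rests on Des alone in subcluster 5 and in most of subcluster 4.

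**Figure D1:**
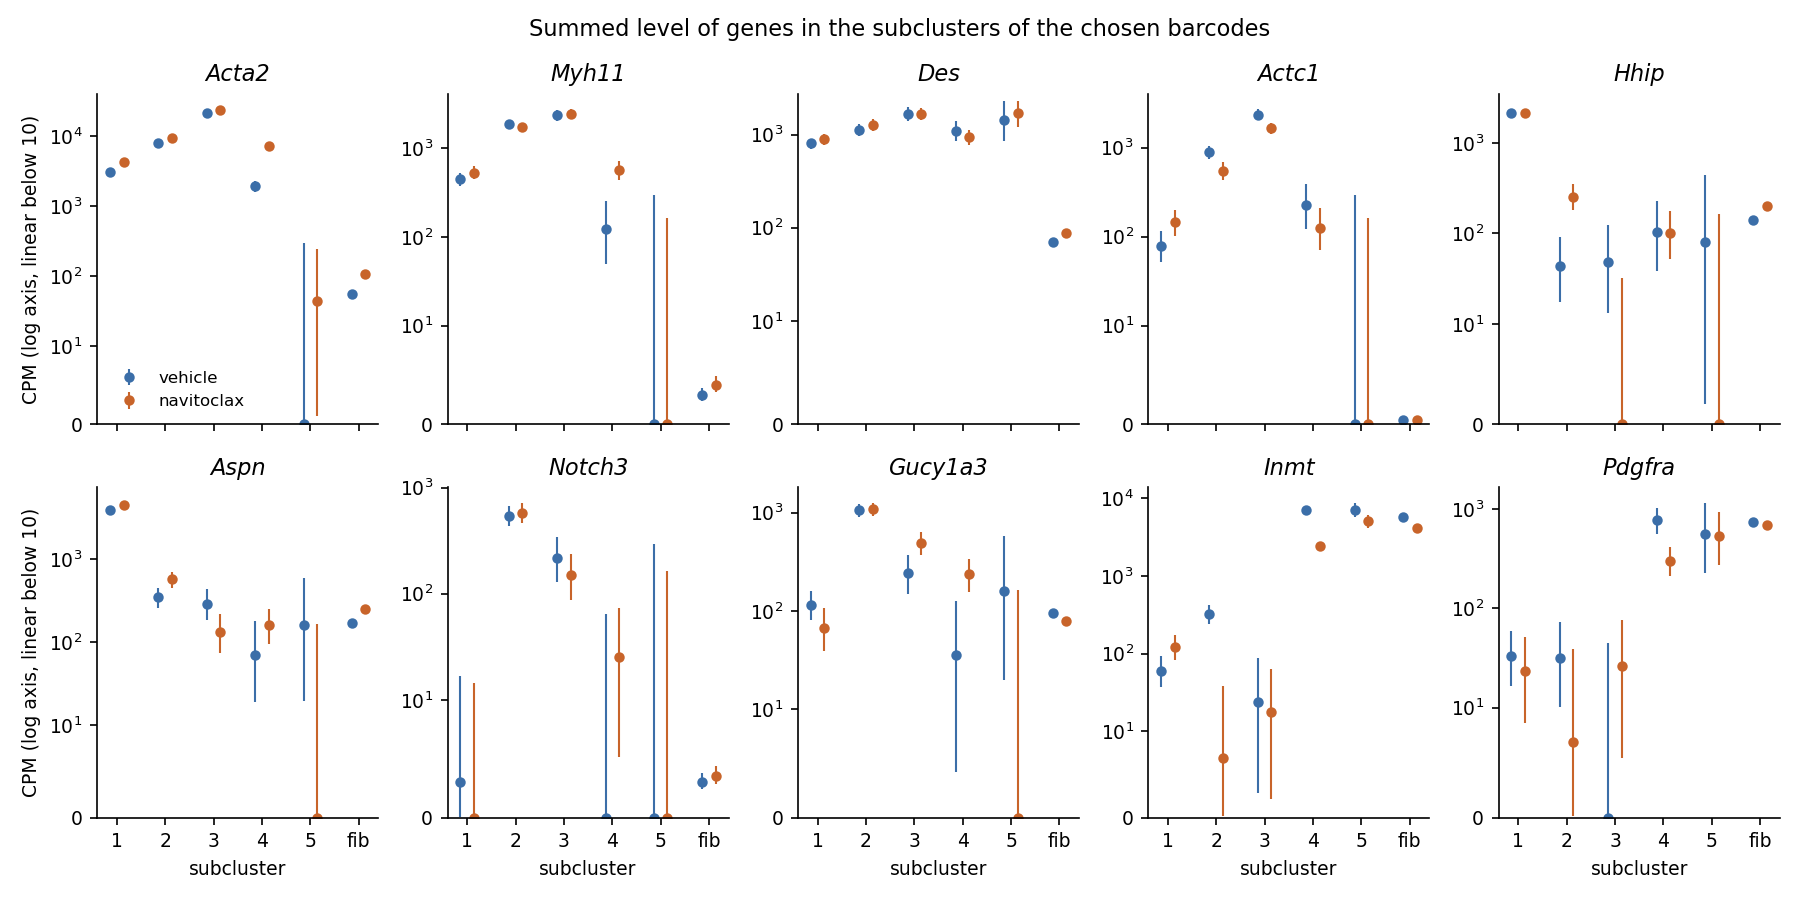
Levels of 10 genes in summed CPM (log axis, linear below 10) in subclusters 1 to 5 and in fibroblast-gene-rich barcodes, by library, with bars for 95% Poisson intervals. Acta2 and Myh11 are highest in subcluster 3, Hhip in subcluster 1 and Notch3 in subcluster 2, while Inmt is high in subclusters 4 and 5 and in fibroblast-gene-rich barcodes.

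Subcluster 1 carried both contractile and peribronchial fibroblast genes. Hhip stood at 2159 (vehicle) and 2180 CPM (navitoclax), against 140 and 201 in fibroblast-gene-rich barcodes. Aspn, a small proteoglycan of the matrix, stood at 3821 and 4446 CPM against 170 and 250. Nearly every cell held both genes: of 60 vehicle cells 57 had Hhip and 57 had Acta2, and of 38 navitoclax cells 36 had each. Tagln, an actin-associated protein of contractile cells, reached 5542 and 6937 CPM there. P2ry14, a receptor for UDP-sugars, stood at 749.8 and 748.7 CPM, and Kcnj8, a pore subunit of ATP-sensitive potassium channels, at 366 and 269 CPM. The label of smooth muscle is thus carried in subcluster 1 beside genes that also mark peribronchial fibroblasts.

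Subcluster 2 carried vascular mural genes. Notch3 stood at 539 (vehicle) and 581 CPM (navitoclax), against 216 and 149 in subcluster 3 and 3.02 and 0 in subcluster 1. Ebf1, a transcription factor of mural and other mesenchymal cells, stood at 645 and 539 CPM in subcluster 2 and was absent in subcluster 1. Gucy1a3, a subunit of the nitric oxide receptor guanylate cyclase, stood at 1065 and 1078 CPM in subcluster 2, against 115 and 66.3 in subcluster 1. Pdgfrb stood at 545 and 615 CPM. The 8 pericyte-class cells held much of this, 47 of the 170 vehicle and 89 of the 156 navitoclax Gucy1a3 UMIs of the subcluster, and 22 of 87 and 42 of 89 for Pdgfrb.

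Subcluster 3 had the highest contractile levels, and Actc1, the cardiac actin, at 2353 (vehicle) and 1649 CPM (navitoclax), against 883 and 553 in subcluster 2. Tcap, a cap protein of the sarcomere, stood at 492 and 666 CPM. Of the genes that define heart muscle, Myl7 and Tnni3 were confined to 1 vehicle cell with 1565 UMIs, which held all 60 and all 21 of their UMIs, and 40 of the 45 Myl4 UMIs. Tnnt2, the cardiac troponin T, was in 18 members, with 25 of its 60 UMIs in that cell. Actc1 by contrast had a UMI in 72 members and Tcap in 41, and Nppa in none. P2rx1, an ATP-gated channel of arterial muscle, stood at 120 and 140 CPM in subcluster 3, 81.4 and 20.7 in subcluster 2, and 0 in subcluster 1.

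Subclusters 4 and 5 carried alveolar fibroblast genes. Inmt, a methyltransferase abundant in lung fibroblasts, stood at 6959 (vehicle) and 2455 CPM (navitoclax) in subcluster 4 and at 7073 and 5045 in subcluster 5, against 5632 and 4170 in fibroblast-gene-rich barcodes. Pdgfra, the receptor that marks fibroblasts, stood at 771 and 302 CPM in subcluster 4 and 563 and 531 in subcluster 5, against 742 and 686. In subcluster 4 these sums rest largely on few cells. The 3 cells highest for Inmt held 351 of its 397 vehicle and 231 of its 293 navitoclax UMIs. For Pdgfra the 3 highest held 34 of 44 and 21 of 36. Inmt had a UMI in all 8 vehicle and in 10 of 13 navitoclax cells, and Pdgfra in 6 and 9. The 8 fibroblast markers summed to 15302 and 6116 CPM in subcluster 4 and 10449 and 7877 in subcluster 5, against 14209 and 12895 in fibroblast-gene-rich barcodes. Cells of subcluster 5 were shallow, with a median of 1508.5 UMIs, and held 18 vehicle and 38 navitoclax Des UMIs in all, at most 7 in 1 cell. For these cells the data go against the label, since Des was the single muscle gene of the rule in most of them. Scrublet called 3 members doublets, all of them navitoclax cells of subcluster 4.

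**Figure D2:**
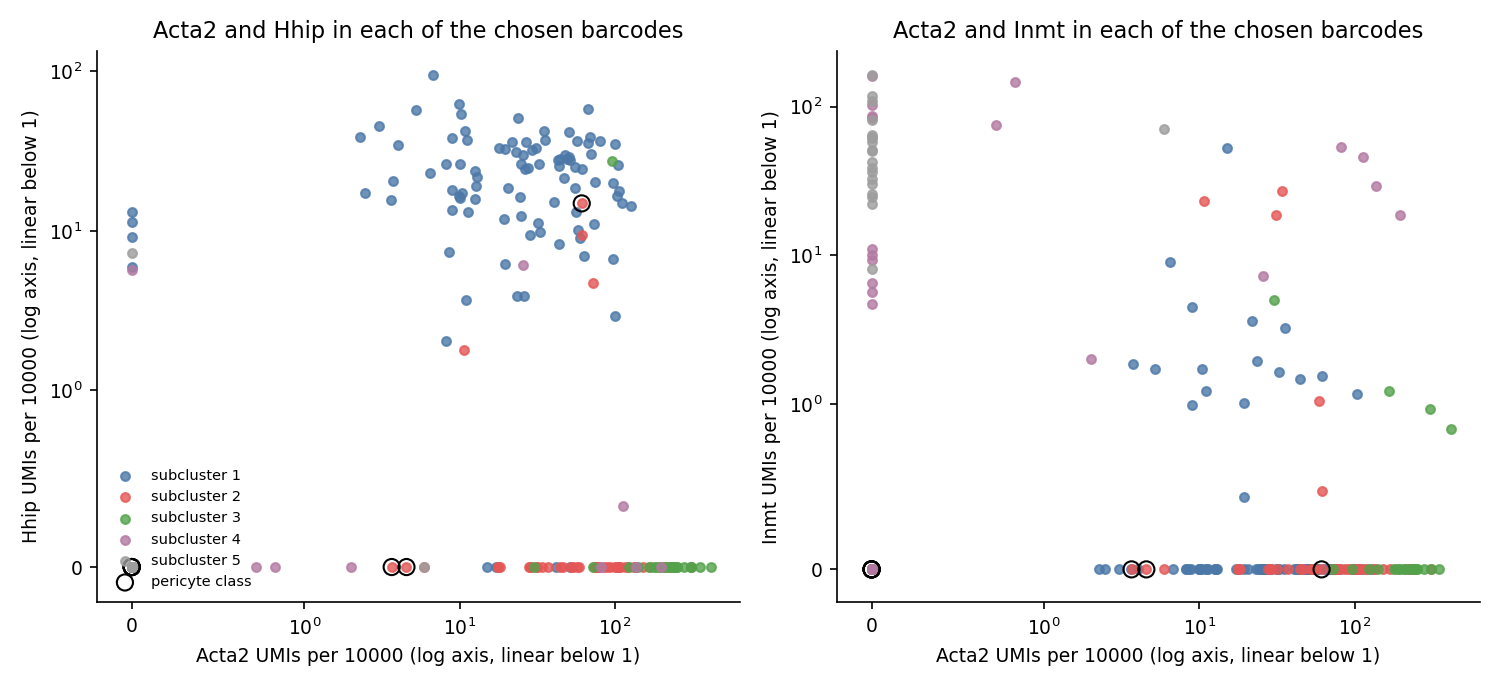
Acta2 against Hhip and against Inmt in each of the 216 members, in UMIs per 10000, with colour for subcluster and rings for the pericyte class. Acta2 and Hhip occur in the same cells of subcluster 1, while most cells with high Inmt have little or no Acta2.

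The pericyte class consisted of 8 cells, and each was examined in turn. The 4 vehicle cells held 1389, 2025, 2198 and 2737 UMIs, and the 4 navitoclax cells 2790, 3326, 6577 and 11444. Higd1b, a small mitochondrial membrane protein, had 3, 2, 2 and 2 UMIs in the vehicle cells and 4, 8, 30 and 6 in the navitoclax cells. Cox4i2, an isoform of a cytochrome c oxidase subunit that is abundant in lung, had 3, 2, 5 and 7 UMIs and then 1, 11, 15 and 24. These genes chose the cells. Cox4i2 was also present in 15.0% and 17.8% of epithelial barcodes, at 8.85 and 9.73 CPM, while Higd1b was at 0.0350 and 0.0164 CPM there.

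Receptors that the rule did not use were present in every cell of the class. Pdgfrb had 2, 10, 5 and 5 UMIs in the vehicle cells and 11, 9, 9 and 13 in the navitoclax cells. Notch3 had 3, 5, 3 and 4 UMIs and then 10, 5, 7 and 8. Gucy1a3 had 6, 19, 15 and 7 and then 15, 14, 44 and 16, and its partner subunit Gucy1b3 had 2, 11, 3 and 3 and then 10, 9, 27 and 8. Both subunits of the nitric oxide receptor were thus in all 8 cells. Postn, a matricellular protein, had 8, 14, 11 and 24 UMIs and then 19, 5, 9 and 10, and Col4a1, a chain of basement membrane collagen, had 3, 8, 8 and 8 and then 13, 16, 11 and 14. Ebf1 was in all 8 cells, with 1 to 7 UMIs. Ndufa4l2, a mitochondrial protein induced by hypoxia, was in 6 cells and the matrix protein vitronectin (Vtn) in 7.

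Other pericyte genes were sparse. Rgs5, a regulator of G-protein signalling often used to mark pericytes, had no UMI in any of the 8 cells, where 3 UMIs would be 359 CPM in the vehicle class and 124 CPM in the other. It had 3 and 4 UMIs in the smooth muscle class. The proteoglycan Cspg4 was in 4 cells and the channel genes Kcnj8 and Abcc9 in 2 and 3. The endothelial gene Pecam1 and the leukocyte gene Ptprc had none, and the surfactant gene Sftpc had 30 UMIs over the 4 vehicle and 77 over the 4 navitoclax cells.

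Acta2 and Tagln were at 0 to 2 UMIs in 7 of the 8 cells of the pericyte class. Acta2 had 0, 0, 1 and 1 UMIs in the vehicle cells and 0, 0, 0 and 70 in the navitoclax cells. Tagln had 1, 0, 2 and 1 UMIs and then 1, 2, 0 and 87. The same navitoclax cell, the deepest of the class, held all 17 Hhip UMIs, 46 of the 53 Aspn UMIs and 14 of 23 navitoclax Des UMIs. The other contractile genes were not all low: the regulatory light chain Myl9 was in 6 of the 8 cells and Des in 7. The 25 listed contractile genes summed to 8145 (vehicle) and 18851 CPM (navitoclax) in the pericyte class, against 31131 and 37312 in the smooth muscle class and 4978 and 5424 in fibroblast-gene-rich barcodes. For Acta2, Tagln, Hhip and Aspn the summed levels of the navitoclax pericyte class rest on 1 cell.

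**Figure D3:**
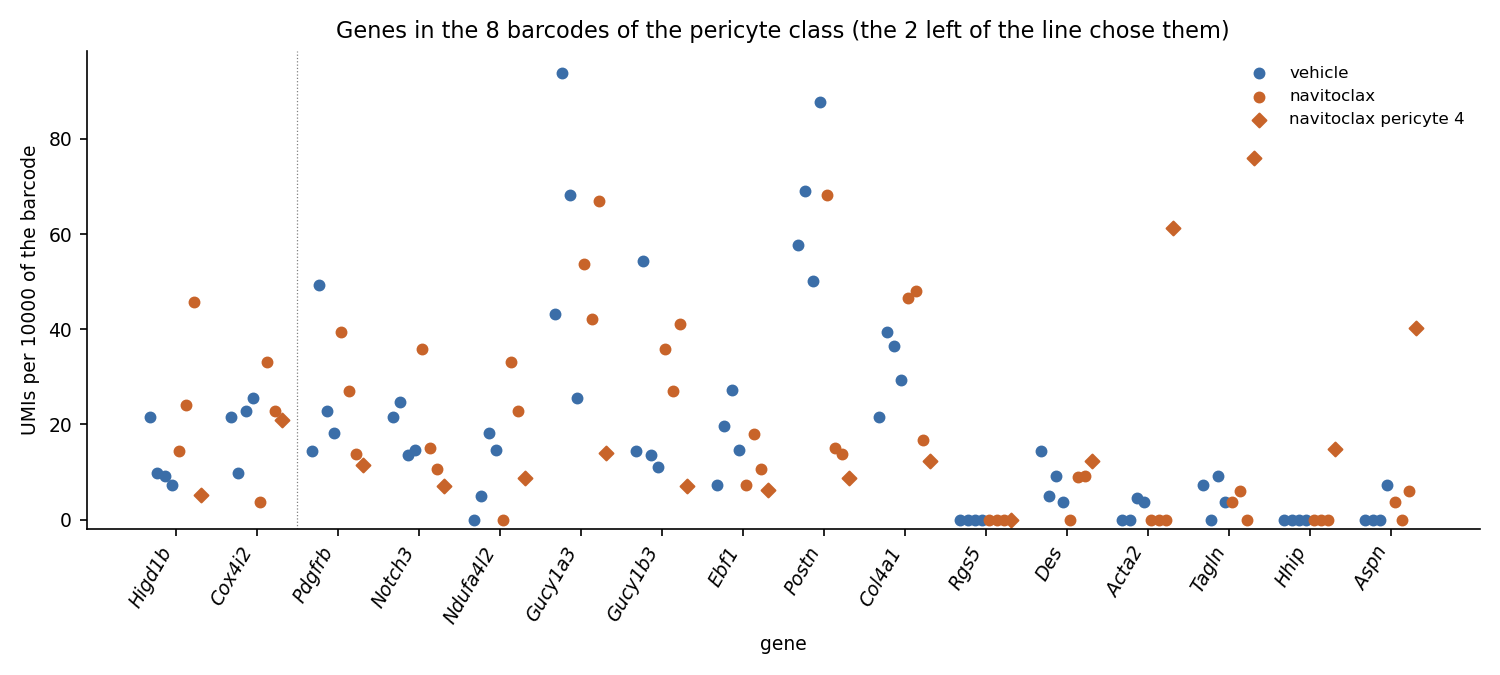
UMIs per 10000 of 16 genes in each of the 8 cells of the pericyte class, by library, with a diamond for the deepest navitoclax cell. Pdgfrb, Notch3, Gucy1a3 and Postn are present in all 8 cells, whereas Acta2, Tagln and Hhip are high in the diamond alone.

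Set against the smooth muscle class, 181 of 2053 genes (8.82%) were at least 2-fold higher in the pericyte class in both libraries and 91 (4.43%) at least 2-fold higher in the smooth muscle class in both. The split between the classes used 6 of the genes, so this is a description of 8 cells against 206. For these numbers a count of 0 in a class was given a floor of 3 UMIs. The pericyte class held 8349 vehicle and 24137 navitoclax UMIs, so that floor can place genes without a pericyte UMI on the pericyte side. How many of the 181 rest on the floor was not counted. The largest of the pericyte side was Pdzd2, a PDZ-domain protein, 112-fold higher in the vehicle and 64.5-fold higher in the navitoclax library. Both subunits of the nitric oxide receptor and the phosphodiesterase Pde5a were on the pericyte side. Gucy1a3 was 19.2-fold (13.6 to 26.5) and 13.8-fold (10.6 to 18) higher, Gucy1b3 13.1-fold (7.62 to 21.5) and 15.3-fold (10.7 to 21.7), and Pde5a, which degrades cyclic GMP, 11.9-fold (7.49 to 18.3) and 12.9-fold (9.48 to 17.5).

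Pdgfrb was 15.9-fold (9.58 to 25.4) higher in vehicle and 10.9-fold (7.45 to 15.9) higher in navitoclax pericytes, and Notch3 12.6-fold (6.75 to 21.9) and 10.6-fold (6.67 to 16.4). Matrix genes differed as well. Postn was 39.1-fold (27.9 to 54.3) and 11.7-fold (7.95 to 16.9) higher, a wide difference between the libraries that rests on 57 and 43 UMIs. Basement membrane Col4a1 was 8.14-fold (5.26 to 12.1) and 4.71-fold (3.46 to 6.31) higher and Col4a2 6.89-fold (3.85 to 11.5) and 4.26-fold (2.83 to 6.21). Ltbp2, a protein of elastic microfibrils, was 10.9-fold and 10.8-fold higher. Kcnk3, a potassium channel of pulmonary vascular cells, was 6.16-fold (3.11 to 11.1) and 7.18-fold (4.51 to 11.1) higher.

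On the smooth muscle side, Mgp, a matrix inhibitor of calcification, stood at 13615 (vehicle) and 23181 CPM (navitoclax), against 1 UMI in the vehicle pericytes and 62 UMIs in the navitoclax pericytes. Acta2 stood at 6626 and 9397 CPM, against 2 and 70 UMIs. Dcn, a collagen-binding proteoglycan, had 0 and 4 UMIs in the pericyte class, and Igfbp5, an IGF-binding protein, 0 and 8. The 8 fibroblast markers together stood at 1198 and 1409 CPM in the pericyte class, against 4373 and 4119 in the smooth muscle class. The libraries were not compared within pericytes, since each held fewer than 20 cells.

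Between the libraries, the smooth muscle class differed by more than 1.5-fold in a small share of genes. Of 1986 genes with at least 100 UMIs over both libraries, 86 (4.33%) were more than 1.5-fold higher in the navitoclax library and 53 (2.67%) more than 1.5-fold lower. The class held 629506 vehicle and 629345 navitoclax UMIs, and the median log2 ratio over the 1986 genes was 0.00. Of the higher genes, 85 had intervals that excluded 1, as did all 53 lower genes. The minimum of 100 UMIs and the 1.5-fold limit nearly fix this in advance, so it adds no support. In fibroblast-gene-rich barcodes, with far more cells and thus less counting error, 29 of the same 1986 genes (1.46%) were past 1.5-fold higher and 8 (0.403%) lower. Of the 86 higher genes, 13 were past 1.5-fold the same way there, and of the 53 lower genes, 1 was. In subclusters 1 to 3 alone, 54 of the 86 and 34 of the 53 stayed past 1.5-fold. Subclusters 1 to 3 leave out those rich in fibroblast genes. They include the 8 pericyte-class cells, as do the ratios given for subcluster 2. These subclusters hold most of the same cells, so this is not independent support; of their 1704 counted genes, 3.64% were past 1.5-fold higher and 2.70% lower.

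**Figure D4:**
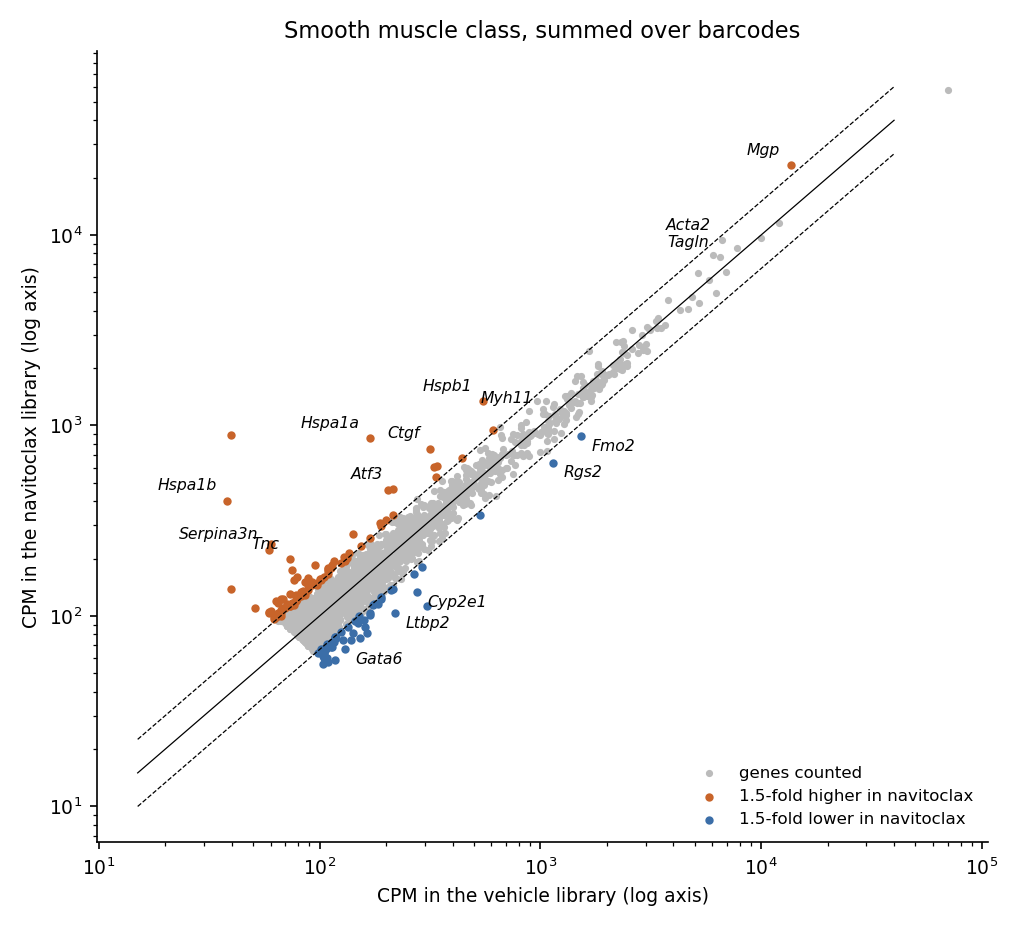
Summed CPM of 1986 genes in the smooth muscle class, vehicle library on the horizontal and navitoclax library on the vertical log axis, with dashed lines at 1.5-fold either way. Hspa1b and Hspa1a lie furthest above the diagonal of the named genes, and most genes lie between the dashed lines.

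Among the lists with at least 5 counted genes, the heat shock chaperones had the highest median ratio. These genes help proteins to fold and are induced by the factor HSF1, which binds repeats of an inverted GAA motif. Hspa1a and Hspa1b, which encode near-identical inducible HSP70 proteins, and Hspb1, which encodes a small heat shock protein, led the group. Their promoters are shown because these 3 genes moved together, with matches to the letters GAANNTTC in capitals. The sequences are from RefSeq for build GRCm38.p6, 250 bases before to 50 after the start of transcription, written 5′ to 3′ on the gene's strand.
Hspa1a, chr17:34972107-34972406, minus strand: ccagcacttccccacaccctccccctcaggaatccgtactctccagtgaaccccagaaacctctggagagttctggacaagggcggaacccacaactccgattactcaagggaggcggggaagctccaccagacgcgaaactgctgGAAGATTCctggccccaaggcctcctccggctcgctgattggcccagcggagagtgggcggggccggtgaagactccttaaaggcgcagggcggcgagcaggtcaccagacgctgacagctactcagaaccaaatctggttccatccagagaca
Hspa1b, chr17:34959189-34959488, minus strand: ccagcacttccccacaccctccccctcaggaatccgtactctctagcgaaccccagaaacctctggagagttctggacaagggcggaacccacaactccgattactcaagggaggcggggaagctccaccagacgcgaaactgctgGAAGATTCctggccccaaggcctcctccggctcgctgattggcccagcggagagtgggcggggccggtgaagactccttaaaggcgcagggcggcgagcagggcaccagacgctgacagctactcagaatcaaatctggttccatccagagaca
Hspb1, chr5:135887669-135887968, plus strand: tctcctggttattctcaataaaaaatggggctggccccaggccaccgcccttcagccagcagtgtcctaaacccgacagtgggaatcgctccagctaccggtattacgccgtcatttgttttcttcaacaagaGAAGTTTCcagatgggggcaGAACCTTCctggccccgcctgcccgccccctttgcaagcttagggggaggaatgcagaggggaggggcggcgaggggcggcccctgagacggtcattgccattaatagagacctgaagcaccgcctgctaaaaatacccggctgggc
The motif was searched on both strands, which its palindromic form makes the same search. It lay 104 bases before the start in Hspa1a and in Hspa1b, whose promoters differed at 4 of 300 positions, and 117 and 97 bases before the start in Hspb1. Of the 20 listed heat shock genes, 16 had a promoter in the table and 11 of these held the motif, against 7.86% of all 32841 promoters of that length. The list was counted by gene, with a match in any of its promoters, and the background by promoter. The shares are thus not in the same unit. A match is a description of the letters and not evidence of binding.

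Hspa1b had 24 vehicle and 254 navitoclax UMIs in the smooth muscle class, 38.1 and 404 CPM, a ratio of 10.6 (6.96 to 16.8). Hspa1a had 107 and 540 UMIs, 170.0 and 858 CPM, a ratio of 5.05 (4.10 to 6.27). Because these paralogs are almost identical, the split of reads between them is uncertain, and both were higher. Neither rested on 1 cell, since the highest navitoclax cell had 17 of the Hspa1b and 48 of the Hspa1a UMIs. The Hspa1b ratio was 12.3 in subcluster 1 (15 vehicle and 143 navitoclax UMIs), 7.36 in subcluster 2 (9 and 60) and 15.3 in subcluster 3. The last rests on 1 vehicle UMI against 21 navitoclax UMIs. The Hspa1a ratios in these subclusters were 5.58, 6.16 and 1.83. In fibroblast-gene-rich barcodes the ratios were 14.4 for Hspa1b and 9.85 for Hspa1a, and in epithelial barcodes 28.5 and 26.3. The difference was thus present in all 3 kinds of cell. In the pericyte class Hspa1a had 0, 0, 0 and 0 UMIs in the vehicle cells and 0, 1, 19 and 17 in the navitoclax cells, and Hspa1b 0, 0, 1 and 1 and then 1, 2, 5 and 11.

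Hspb1 had 346 and 844 UMIs, 550 and 1341 CPM, a ratio of 2.44 (2.15 to 2.77), and 3.07 in subcluster 1. Of the 20 listed heat shock genes, 11 had at least 100 UMIs, and all 11 were above 1. Past 1.5-fold were 4 of them, against 4.33% of all 1986 counted genes. The fourth was Hspa8, the constitutive HSP70, at 610 and 944 CPM and 1.55-fold (1.36 to 1.76). The median log2 ratio of the list was 0.45, against 0.60 for the same genes in fibroblast-gene-rich barcodes and 0.30 in epithelial barcodes. Mitochondrial Hspd1 stood at 1.02-fold (0.71 to 1.45).

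Chaperones of the endoplasmic reticulum (ER) moved less. Of 14 listed genes of the ATF6 group, which responds to unfolded protein in the ER, 9 were counted, 7 above 1 and none past 1.5-fold, with a median log2 ratio of 0.34. The largest was Hspa5, the ER HSP70, at 357 and 508 CPM and 1.42-fold (1.20 to 1.69), with Pdia6 at 1.39-fold (1.07 to 1.80) and Pdia3 at 1.35-fold (1.08 to 1.68). Herpud1 and Dnajc3 lay below 1, at 0.93-fold (0.69 to 1.25) and 0.79-fold (0.59 to 1.06). Of 17 listed targets of the IRE1-XBP1 branch, 9 were counted and none was past 1.5-fold, with a median of 0.13. Sec61b, a subunit of the protein channel of the ER, was at 1.49-fold (1.19 to 1.87), and Xbp1 itself at 0.95-fold (0.69 to 1.31). In the PERK-ATF4-CHOP list, 1 of 8 counted genes was past 1.5-fold higher, against 4.33% of all 1986 counted genes. The gene of this list was Atf3, a stress-induced transcription factor, at 216 and 462 CPM and 2.14-fold (1.74 to 2.64). In fibroblast-gene-rich barcodes Atf3 was at 1.06-fold. Its ratio was 3.22 in subcluster 1 and 1.01 in subcluster 3.

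The direct targets of navitoclax were barely counted in these cells. Mcl1, an anti-apoptotic protein that navitoclax does not inhibit, had 164 and 162 UMIs, a ratio of 0.99 (0.79 to 1.24). Bcl2 had 59 vehicle and 34 navitoclax UMIs, 93.7 and 54 CPM, 0.58-fold (0.37 to 0.89), below the minimum of 100 UMIs used for counts. Bcl2l1, which encodes BCL-XL, had 18 and 11 UMIs, and Bcl2l2, which encodes BCL-W, 16 and 16. At these counts a moderate difference in Bcl2l1 or Bcl2l2 was not detectable. Among pro-apoptotic genes, Bax was at 0.86-fold (0.62 to 1.19) and Bnip3l at 0.72-fold (0.54 to 0.96). Of the p53 targets, Cdkn1a, the gene of the cell cycle inhibitor p21, stood at 234 and 278 CPM, 1.19-fold (0.95 to 1.49). In cells with a sum of 20 or more per 10000, the log2 ratio of Cdkn1a was 1.74 instead of 0.25.

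Of 25 listed genes of fibrillar collagen and elastic fibre, 20 were counted, and 16 of these were above 1 in the navitoclax library. Past 1.5-fold higher were 3, against 4.33% of all 1986 counted genes. The list had a median log2 ratio of 0.29. The median was 0.33 in subcluster 1 and 0.59 in subcluster 2 but -0.16 in subcluster 3, and 0.14 over subclusters 1 to 3. Subclusters 4 and 5, rich in fibroblast genes, held 8 and 9 of the 119 vehicle and 13 and 11 of the 97 navitoclax members, and their part in these values was not tested. The same genes had a median of 0.28 in fibroblast-gene-rich barcodes. Col1a1, a chain of collagen I, stood at 961 and 1336 CPM, 1.39-fold (1.25 to 1.55), Col3a1 at 1.22-fold (1.14 to 1.30) and fibronectin (Fn1) at 1.40-fold (1.13 to 1.74). Elastin (Eln) stood at 1477 and 1467 CPM and 0.99-fold (0.91 to 1.09). All 10 counted genes of the basement membrane list were above 1 and none was past 1.5-fold, with a median of 0.20, which was -0.20 in subcluster 3. The largest was Nid1, a linker of laminin and collagen IV, at 1.43-fold (0.95 to 2.17).

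The 3 matrix genes past 1.5-fold were Tnc, Timp1 and Mgp. Tenascin-C (Tnc), a matrix protein of injured tissue, had 46 and 125 UMIs, 2.72-fold (1.92 to 3.90), and 35 of the navitoclax UMIs came from 1 cell. Timp1, an inhibitor of metalloproteinases, was at 1.81-fold (1.22 to 2.71). Mgp had 8571 and 14589 UMIs, 1.70-fold (1.66 to 1.75), of which 2349 navitoclax UMIs came from 1 cell of subcluster 4. The Mgp ratio was 1.20 in subcluster 1, 1.96 in subcluster 2, 2.81 in subcluster 3 and 1.40 in fibroblast-gene-rich barcodes. In subcluster 3 again, 2036 of its 3398 navitoclax Mgp UMIs came from 1 cell.

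Genes of the TGF-beta pathway, which drives scarring, went both ways. Of 22 listed, 18 were counted, 9 above 1 and 9 below, with a median log2 ratio of -0.03. Past 1.5-fold were 3 higher and 4 lower, against 4.33% higher and 2.67% lower over all 1986 counted genes. Ctgf, a matricellular target of TGF-beta and YAP, had 199 and 474 UMIs, 2.38-fold (2.01 to 2.83), and 140 of the navitoclax UMIs came from 1 cell. The ligands differed in direction, Tgfb2 at 1.53-fold (1.11 to 2.12) and Tgfb3 1.51-fold lower. Ltbp2 had 138 and 65 UMIs, 2.12-fold (1.57 to 2.90) lower, and was at 1.01-fold in fibroblast-gene-rich barcodes. Tgfbi, a matrix protein induced by TGF-beta, was 1.60-fold lower and Id4, an inhibitor of helix-loop-helix factors, 1.67-fold lower.

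Contractile genes differed little. Of 25 listed, 23 were counted, 19 above 1 and 1 past 1.5-fold higher, against 4.33% of all 1986 counted genes. The list had a median log2 ratio of 0.16, against 0.22 for the same genes in fibroblast-gene-rich barcodes. The median was 0.30 in subcluster 1 and -0.01 in subcluster 2. Acta2 was at 1.42-fold (1.36 to 1.48), with ratios of 1.38 in subcluster 1, 1.19 in subcluster 2 and 1.08 in subcluster 3. In fibroblast-gene-rich barcodes, where its level was low, it was at 1.98-fold. Tagln was at 1.17-fold (1.13 to 1.23) and Myh11 at 1.12-fold (1.01 to 1.25). Cnn1 was at 1.48-fold (1.22 to 1.81) and smoothelin (Smtn) at 1.49-fold (1.12 to 1.98). The gene past 1.5-fold was Actn1, an actin crosslinker, at 187 and 308 CPM and 1.64-fold (1.30 to 2.09). Lmod1, a leiomodin that nucleates actin in smooth muscle, was among the 4 below 1, at 0.77-fold (0.64 to 0.93).

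Many contractile genes are controlled by serum response factor through the CArG box. The promoter of Myl9, the regulatory light chain of smooth muscle myosin, is shown because it is a counted contractile gene whose promoter holds the motif. The CArG box is in capitals, 161 bases before the start.
Myl9, chr2:156775214-156775513, plus strand, RefSeq, GRCm38.p6: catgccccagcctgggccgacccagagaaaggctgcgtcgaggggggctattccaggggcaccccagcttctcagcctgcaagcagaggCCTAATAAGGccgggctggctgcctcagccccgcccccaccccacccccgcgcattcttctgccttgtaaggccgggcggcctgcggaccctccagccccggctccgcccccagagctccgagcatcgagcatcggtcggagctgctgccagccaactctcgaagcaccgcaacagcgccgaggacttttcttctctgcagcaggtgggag
Myl9 stood at 1828 and 2056 CPM, 1.12-fold (1.04 to 1.22). Of 21 contractile genes with a promoter in the table, 3 held the box, namely Myl6, Myl9 and Vcl, against 1.63% of all 32841 promoters, searched on both strands. Here too the list was counted by gene and the background by promoter.

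**Figure D5:**
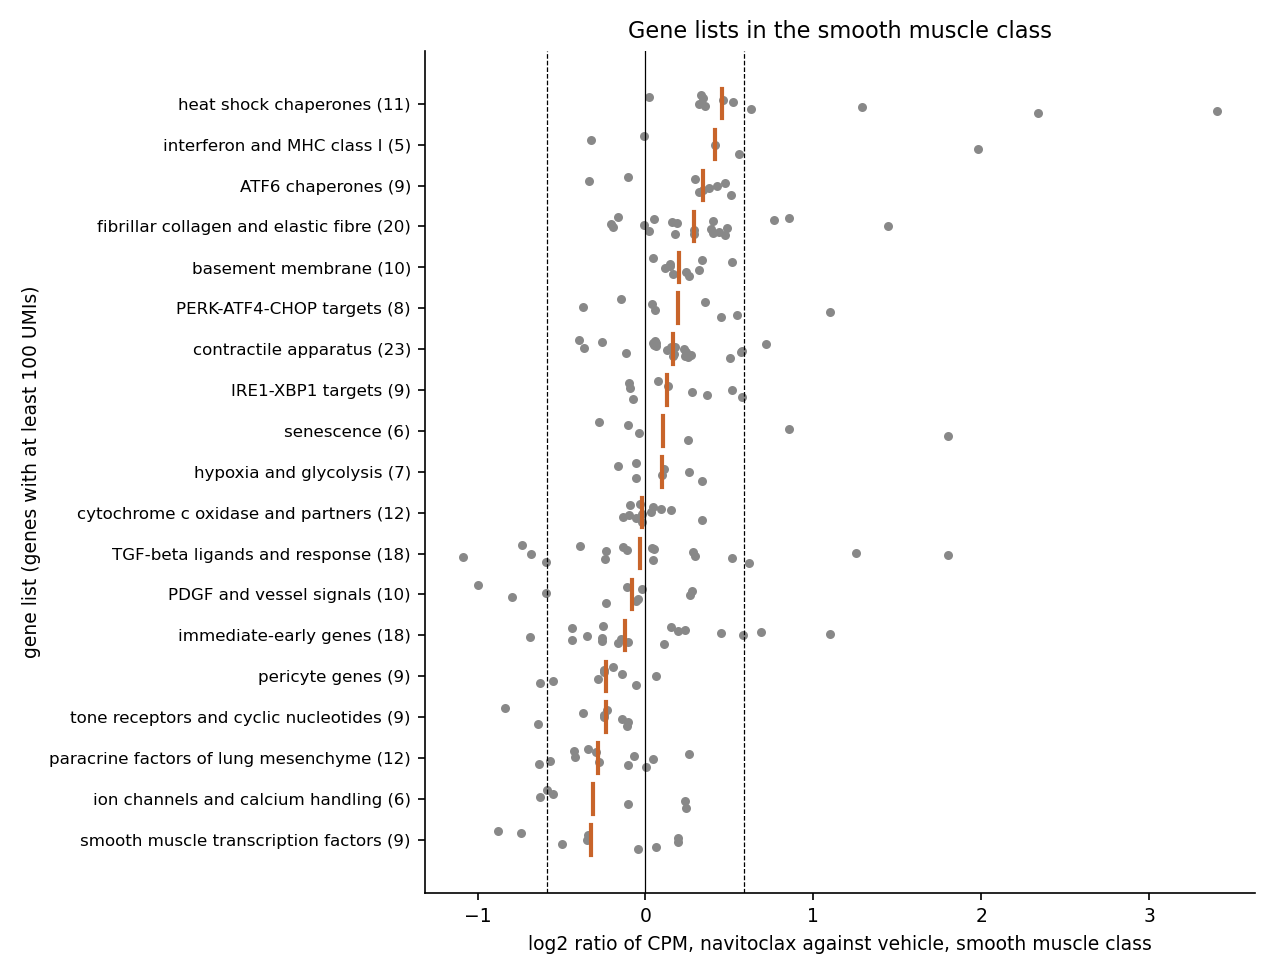
log2 ratio of navitoclax to vehicle CPM in the smooth muscle class for each counted member of the lists with at least 5 counted genes, with a bar for the list median. The heat shock list has its whole range above 0, 19 of the 23 contractile genes lie above 0, and all 9 genes of the tone receptor list lie below it.

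Receptors and regulators of vessel tone leaned lower in the navitoclax library. All 9 counted genes of that list, of 31 listed, were below 1 and 2 were past 1.5-fold, with a median log2 ratio of -0.24. Among all 1986 counted genes, 2.67% were past 1.5-fold lower. Rgs2, which limits signals of contractile G-protein receptors, had 717 and 401 UMIs, 1139 and 637 CPM, and was 1.79-fold (1.58 to 2.03) lower. Its ratio was 0.56 in subcluster 1 and 0.80 in subcluster 2 but 2.37 in subcluster 3, and 0.67 in fibroblast-gene-rich barcodes. The endothelin receptor Ednrb had 120 and 77 UMIs, 1.56-fold (1.16 to 2.10) lower, while Ednra was at 0.93-fold (0.67 to 1.28). Gucy1a3 was at 0.91-fold (0.73 to 1.13) and Pde5a at 0.84-fold (0.66 to 1.07). Over subclusters 1 to 3, which also hold the 8 pericyte-class cells, the median of the list was 0.01. Its direction thus depended on which cells entered, and the part of the pericyte-class cells was not tested.

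Channel genes and pericyte genes that the smooth muscle class also carries were lower or near 1. Kcnj8 had 133 and 86 UMIs, 1.55-fold (1.17 to 2.05) lower, its partner Abcc9 was at 0.68-fold (0.46 to 1.01) and Kcnk3 at 0.67-fold (0.51 to 0.87). Of 22 listed pericyte genes, 9 were counted, 8 below 1 and 1 past 1.5-fold lower, against 2.67% of all 1986 counted genes. The median log2 ratio of the list was -0.24. The median was 0.16 in subclusters 1 to 3, which include the 8 pericyte-class cells that the smooth muscle class leaves out. Those cells held 8349 vehicle and 24137 navitoclax UMIs, and their part in this value was not tested. Pdgfrb was at 0.96-fold (0.72 to 1.28). All 3 counted Notch genes, Notch3, Hes1 and Heyl, were below 1, at 0.82-fold (0.60 to 1.13), 0.80-fold (0.61 to 1.04) and 0.79-fold (0.52 to 1.19), and no interval excluded 1.

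Of 18 listed smooth muscle transcription factors, 9 were counted, 6 below 1 and 2 past 1.5-fold lower, against 2.67% of all 1986 counted genes. The median log2 ratio of the list was -0.33. It was 0.14 in subcluster 2 and -0.15 over subclusters 1 to 3, and both values include the pericyte-class cells. In subclusters 1 and 3 the median was exactly 0, the value of a gene without a UMI in either library. Those medians thus cannot show whether the list leaned either way there. Tbx5 had 101 and 55 UMIs and was 1.84-fold (1.31 to 2.60) lower, and Tbx4 had 107 and 64 and was 1.67-fold (1.22 to 2.32) lower. These T-box factors pattern lung mesenchyme. Gata6, which is not on the list, had 82 and 42 UMIs and was 1.95-fold (1.33 to 2.90) lower. In fibroblast-gene-rich barcodes the ratios of Tbx5, Tbx4 and Gata6 were 0.88, 0.86 and 0.79.

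Genes that signal to vessels included 3 past 1.5-fold lower. Of 21 listed genes of PDGF and vessel signals, 10 were counted, 8 below 1 and 3 past 1.5-fold, with a median log2 ratio of -0.08. Over all 1986 counted genes, 2.67% were past 1.5-fold lower. Placental growth factor (Pgf) had 74 and 37 UMIs, 2.0-fold (1.33 to 3.05) lower. Angiopoietin 1 (Angpt1), which stabilises vessels through the receptor Tie2, was 1.74-fold (1.15 to 2.66) lower in summed counts, but its log2 ratio was 0.29 with the mean of per-cell CPM. Sema5a, a guidance cue, was 1.51-fold lower. The ratio of Pgf was 0.52 in subcluster 1, 0.51 in subcluster 2 and 0.49 in subcluster 3. Its direction was the same in those 3 subclusters. They hold most of the cells of the class, so this is not independent support. The whole class held 74 and 37 Pgf UMIs, and no interval is given for the ratios by subcluster.

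Immediate-early genes, which respond within minutes to growth factors and stress, went both ways. Of 19 listed, 18 were counted, 8 above 1 and 10 below, with a median log2 ratio of -0.12. Past 1.5-fold were Atf3 and Klf2, a factor of quiescence, the latter at 1.61-fold (1.19 to 2.19), and Ier3, 1.61-fold lower. Over all 1986 counted genes, 4.33% were past 1.5-fold higher and 2.67% lower. Fos was at 1.08-fold (1.01 to 1.15), Junb at 0.83-fold (0.77 to 0.90) and Jund at 0.74-fold (0.66 to 0.82). Paracrine factors of lung mesenchyme leaned lower, with 9 of 12 counted genes below 1 and a median of -0.29, though the median was 0.18 in subcluster 1. Igfbp4, which binds IGF, had 135 and 87 UMIs and was 1.55-fold (1.18 to 2.06) lower, but in subcluster 1 only its log2 ratio was 0.32. Igf1 had 196 and 196 UMIs. Subunits of cytochrome c oxidase and its partners stayed near 1, with 12 counted of 17, none past 1.5-fold and a median of -0.02. Of the hypoxia and glycolysis list, 7 of 16 were counted and none was past 1.5-fold.

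Other genes past 1.5-fold included metabolic enzymes. Cyp2e1, a cytochrome P450, had 174 and 84 UMIs and was 2.07-fold (1.59 to 2.72) lower. It was among the leading genes of subcluster 1, which had 164 and 73 Cyp2e1 UMIs, 496 and 285 CPM. Subcluster 1 made up 60 of 119 vehicle and 38 of 97 navitoclax members, and the part of this in the class ratio was not tested. Fmo2, the flavin monooxygenase of lung, had 961 and 551 UMIs and was 1.74-fold (1.57 to 1.94) lower, and lipoprotein lipase (Lpl) was 2.02-fold (1.43 to 2.88) lower. Fmo2 was at 0.52-fold in subcluster 1, 0.90-fold in subcluster 2 and 2.24-fold in subcluster 3. On the higher side, the interferon-responsive Ifi27l2a had 38 and 150 UMIs, 3.95-fold (2.75 to 5.80), and the acute-phase inhibitor Serpina3n 37 and 140, 3.78-fold (2.62 to 5.60). Single navitoclax cells held 53 and 51 of those UMIs. Itih4, an acute-phase protein, was at 2.34-fold (1.65 to 3.37) over the class but at 0.64-fold in subcluster 1. Rsrp1, a nuclear arginine-rich protein, was at 2.24-fold (1.81 to 2.78) and was also at 1.83-fold in fibroblast-gene-rich barcodes.

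Markers of fibroblasts, peribronchial fibroblasts, epithelium, pericytes and cardiac muscle were present in the smooth muscle class, and those of other cells were near 0. The 8 fibroblast markers summed to 4373 (vehicle) and 4119 CPM (navitoclax), and none was at 0. The peribronchial markers Hhip and Aspn summed to 3285 and 2854 CPM, and the 9 pericyte markers to 856 and 655. The 7 epithelial markers summed to 3596 and 3578 CPM, against 263363 and 252731 in epithelial barcodes. The 7 endothelial markers summed to 3.18 and 3.18 CPM with Cdh5, Cldn5, Tie1 and Emcn at 0, and the 7 immune markers to 1.59 and 3.18 with Ptprc, Cd52, Tyrobp, Fcer1g and Cd3e at 0. Mesothelial, skeletal muscle and Schwann cell markers stayed at or under 11.1 CPM. The 7 cardiac markers summed to 802 and 531 CPM, most of it Actc1. The part of depth, of fibroblast transcripts and of the cell mix in the differences between libraries was not tested.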

How the data were processed

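Per the labels, single-cell libraries were made with a Chromium 3′ kit. The deposited values are UMI counts per gene and barcode for 27998 genes, without normalization. Per the file headers, Cell Ranger 4.0.0 produced them, and the submitters' processing notes name mm10 as the build. Other settings and filters used by the authors are not stated. The libraries held 97958947 vehicle and 98517048 navitoclax UMIs.

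Members were found from the counts by the stated rule. Counts were summed per class and library as CPM with exact Poisson 95% intervals, ratios of CPM had conditional exact intervals, shares had Clopper-Pearson intervals and the difference of shares a Newcombe interval. The computation used numpy 2.4.6, pandas 2.3.3 and scipy 1.17.1. Ratios between libraries were counted for genes with at least 100 UMIs over both libraries. In the counts of genes 2-fold higher in the pericyte or the smooth muscle class, a count of 0 was given a floor of 3 UMIs. The count procedure was tested on simulated data. The simulation drew independent Poisson counts, the model that the intervals assume. It held no variation between cells or libraries, so it cannot show that the intervals cover such variation. Members were clustered with scanpy 1.11.5 and leidenalg 0.10.2 on 1000 variable genes, 15 principal components and 15 neighbours at resolution 0.5. Barcodes rich in fibroblast genes are the other low-Epcam barcodes with at least 10 UMIs per 10000 for the sum of Col1a2, Col3a1 and Dcn. Their levels of these genes were thus selected on. Epithelial barcodes have at least 2 Epcam UMIs. Doublets were not removed, and leaving out those called by Scrublet at an expected 6% was an alternative. Free RNA was not subtracted.

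The members, the gene lists, the tests and the rule for named genes were chosen with earlier results of these data known. Of 500 listed symbols, 499 were in the files. Named genes were the 12 highest and 12 lowest by the interval bound nearest to 1 among genes with at least 50 CPM, up to 3 members of each list, the genes of the rule, the BCL-2 genes, 12 genes each way between the classes and 6 leading genes of each subcluster. Unnamed gene models, genes of ribosomes, mitochondria, haemoglobin, immunoglobulins or the sex chromosomes' Xist, Tsix and Y genes, and genes under 10% of their CPM elsewhere, were left out of the ranked parts. Other genes, such as further list members and the genes shown cell by cell, were chosen after their values were seen. Some genes that the rule would name are not reported here. Promoters were matched by symbol in a RefSeq table. Other settings are listed in the closing section.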

Additional observations from a re-analysis of the deposited data

Results flagged for a closer look

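Barcodes outside the limits on genes and mitochondrial UMIs also carried the 6 genes at 10 or more per 10000, and no comparison used them. Among low-Epcam barcodes with at least 500 genes and over 15% mitochondrial UMIs, 5 of 507 vehicle (0.986%) and 8 of 777 navitoclax barcodes (1.03%) did so, above the limit that a count of 0 allows. Their Myh11 level was 2268 CPM in the vehicle and 2102 in the navitoclax library, and their Acta2 level 2041 and 6047 CPM. Among barcodes with under 500 genes, 24 of 809 vehicle (2.97%) and 21 of 759 navitoclax barcodes (2.77%) did so. Those barcodes had median depths of 853 and 720 UMIs, Des at 1434 and 1881 CPM and Myh11 at 396 and 67.2 CPM, so that Des carried most of their sum, as in subcluster 5.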

How the results depend on the processing

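No paired analysis was possible because each group had 1 library. The difference in share between the libraries stayed within its counting interval, but the share itself moved with the rule. The smooth muscle class made up 1.22% (vehicle) and 1.40% (navitoclax) at 20 or more per 10000, 2.02% and 1.89% where a UMI of Myh11, Cnn1 or Actg2 was required, 2.15% and 1.89% without subclusters 4 and 5, and 3.23% and 3.14% with fibroblast-gene-rich barcodes and members as denominator. The count of genes past 1.5-fold higher and lower moved most with the UMI minimum and with the cells. It was 24 and 10 with at least 200 UMIs, 222 and 188 with at least 50, 25 and 12 after thinning to 2000 UMIs and 40 and 26 in subcluster 1 only, settings that count fewer or more genes. With the mean of per-cell CPM, 80 genes were lower. The genes higher in pericytes numbered 73 with a sum of at least 20 per 10000 and 378 where the larger sum was at least 3 times the smaller. They numbered 52 with at least 200 UMIs and 933 with at least 50. The floor for counts of 0 enters each of these numbers. Of 35 named genes past 1.5-fold, 14 stayed past it in every setting run and 3 changed sign in a setting. The log2 ratio of Angpt1 was 0.29 with the mean of per-cell CPM, and those of Igfbp4 and Itih4 were 0.32 and -0.66 in subcluster 1 only. The cause was not tested. At 20 or more per 10000 the log2 ratio of Fmo2 went from -0.80 to -0.02, Lpl from -1.01 to -0.32, Ednrb from -0.64 to -1.38, Klf2 from 0.69 to 1.64, Mgp from 0.77 to 1.40 and Cdkn1a from 0.25 to 1.74. In subcluster 1 only, Cnn1 went from 0.57 to 1.16, Atf3 from 1.10 to 1.77 and Serpina3n from 1.92 to 2.72. After thinning, Timp1 went from 0.85 to 1.63 and Ifi27l2a from 1.98 to 1.27, which was also its value with the mean of per-cell CPM. Leaving out the highest cell brought Serpina3n from 1.92 to 1.43 and Ctgf from 1.25 to 0.99. The settings by subcluster, the fibroblast denominator and the requirement for Myh11, Cnn1 or Actg2 were chosen after seeing the data. With 206 and 8 cells, depth limits genes under 100 UMIs and all pericyte genes.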
